A study of Mus musculus with 6 samples.

Results

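The genes described here encode protein phosphatase subunits: the catalytic and regulatory subunits of PP1, PP2A, PP4, PP5 and PP6, together with the magnesium-dependent phosphatases of the PPM1 group. Members were chosen by gene symbol alone: Ppp followed by a digit from 1 to 6, c or r, and any further letters or digits, without the calcineurin genes (Ppp3), or Ppm1 followed by 1 letter. The rule found 83 of the 18193 genes on the array. A stricter reading, which needs a character after c or r, leaves out Ppp4c, Ppp5c and Ppp6c and finds 80. Of the 83 members, 20 are catalytic, 62 are regulatory and 1, Ppp2r2cos, is an opposite-strand RNA. The 3 pseudogene symbols that begin in the same way were not counted.

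RNA from mouse hippocampus was hybridised to 6 Affymetrix arrays. In the HuD group (3 arrays), the RNA had come down with protein-G beads carrying anti-myc antibody directed at transgenic HuD, the neuronal RNA-binding protein encoded by Elavl4. In the IgG group (2 arrays), the beads carried non-immune IgG, and the remaining array held total input RNA (1 array). The labels give no strain, sex, age, transgene promoter or number of animals, and they do not say whether the IgG and input RNA came from transgenic mice or whether arrays of a group were separate preparations. Limma's p-values therefore describe how far these arrays scatter, which could be technical scatter alone, and the number of arrays limits the precision.

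Protein phosphatases remove phosphate groups from serine and threonine residues and so oppose protein kinases. The PPP family works with few catalytic subunits, which gain their substrates and their location from many regulatory partners, whereas PPM enzymes mostly act as single chains. In hippocampal neurons PP1 and PP2A are known for limiting synaptic potentiation and for dephosphorylating kinases, receptors and cytoskeletal proteins. HuD binds U-rich and AU-rich stretches of mRNAs, often in the 3′ untranslated region, and is known for stabilising its targets.

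Values are deposited signals on a linear scale, given array by array in the order HuD 1, HuD 2, HuD 3, then IgG 1, IgG 2, then input. Each gene was read from its probe set of highest mean log2 signal, and the 9097 genes at or above the median brightness were tested, 61 members among them. Differences are log2 differences of (signal + 32) with their standard errors, and fold changes are on that scale, which understates changes of dim genes. A gene was called higher or lower where limma's p, adjusted by Benjamini-Hochberg over all tested genes, was under 0.05. Signals of different probe sets are not comparable as levels, so only differences are compared between genes.

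Elavl4 itself had signals of 2294, 2010.1 and 1689 on the HuD arrays, 766 and 642 on the IgG arrays and 597 on the input array. It was 2.75-fold higher in HuD than in IgG pulldown (log2 difference 1.46 ± 0.25, limma adjusted p = 0.00111), and no HuD array overlapped another group. Whether the probe set reads the transgene, the endogenous mRNA or both was not tested.

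Markers of other cell types moved between the groups too. Summed marker signals ranged from 5576 to 6853 on HuD arrays, against 12373 to 13415 on IgG arrays and 11863 in input, for 5 astrocyte genes, of which 3 were called lower in HuD than in IgG and 0 higher. For 5 microglial genes the sums were 1382 to 1897, against 2747 to 4438 and 4202 (4 lower, 0 higher). Sums over 5 oligodendrocyte genes were 9336 to 13412, against 14104 to 21033 and 12551 (4 lower, 0 higher), and over 4 endothelial genes 115 to 138, against 291 to 337 and 303 (1 of 2 tested lower). Mbp made up most of the oligodendrocyte sums and differed from input by 0.13 on the log2 scale. Of the 5 oligodendrocyte genes, 3 were called lower in HuD than in input. The 6 interneuron genes gave 5204 to 7615, against 7792 to 9465 and 8688 (4 lower, 1 higher), and the 6 excitatory neuron genes 3175 to 3938, against 3047 to 3777 and 2858 (2 of 5 tested higher, 0 lower). Camk2a made up most of the excitatory sums on the IgG arrays. Its log2 difference between HuD and IgG was -0.97, not past the threshold, whereas Neurod2 and Tbr1 were called higher at 0.83 and 2.17. For 3 choroid plexus genes the sums were 12205 to 15308, against 16264 to 18623 and 9409 (0 called). Ttr made up most of these sums. Its log2 difference from input was 0.62, whereas those of Kcnj13 and Clic6 were -1.12 and -0.27, none past the threshold. Sums over 4 genes of organs outside the brain stayed between 43.4 and 61.0, against 51.1 to 61.1 and 41.3, and no marker was at 0. In such bulk RNA, fewer cells of a type, less RNA per cell and less of that RNA retained in the pulldown cannot be told apart. The part of these shifts in the phosphatase results was not tested.

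The comparison of HuD with IgG pulldown asks which mRNAs came down with HuD beyond what beads with non-immune antibody retain. Catalytic and regulatory mRNAs divided differently. Among the 18 tested catalytic members, 8 (44.4%) were higher in HuD pulldown and 2 (11.1%) lower, whereas among the 43 tested regulatory members 6 (14%) were higher and 18 (41.9%) lower. Over all tested genes, 21.5% were called higher and 34.0% lower. All 61 tested members together, with 14 higher (23%), 20 lower (32.8%) and 27 not past the threshold, lay close to those shares. No test of either class was made, since the members of a class are not replicates of a condition.

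The median log2 difference was 0.17 for catalytic and -0.50 for regulatory members, against -0.28 for all tested genes, which places the classes 0.67 apart. The gap shrank to 0.26 when all probe sets of a gene were averaged, with a catalytic median of -0.03 and a regulatory median of -0.28. Without IgG 1 the catalytic median was -0.04. Centring each array on its 75th percentile moved the median of all genes to 0.03, the catalytic median to 0.49 and the regulatory median to -0.18. Under that scaling 16 members were higher and 11 lower, in place of 14 and 20. The shares of 21.5% and 34.0% of all tested genes belong to the deposited scaling and do not apply to these counts. The number of falls thus depended on where the arrays were centred. Since all genes shifted, this is not particular to the regulatory members.

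Arrays carry one of 2 suffixes in their titles, whose meaning the labels do not give. Suffix 1 (le1) marks HuD 1, IgG 1 and the input, and suffix 2 (e1_le1) the others. Within the pair HuD 1 and IgG 1, the catalytic median was 0.39 and the regulatory median -0.49. Within HuD 2, HuD 3 and IgG 2, these medians were 0.04 and -0.60. In each of the 34 called members, the HuD and IgG arrays did not overlap. Absence of overlap was common on these arrays. Called or not, 14 of the 61 tested members had all HuD arrays above the IgG arrays, and 27 had all below. Over all 9097 tested genes these counts were 2507 and 3919.

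**Figure D1:**
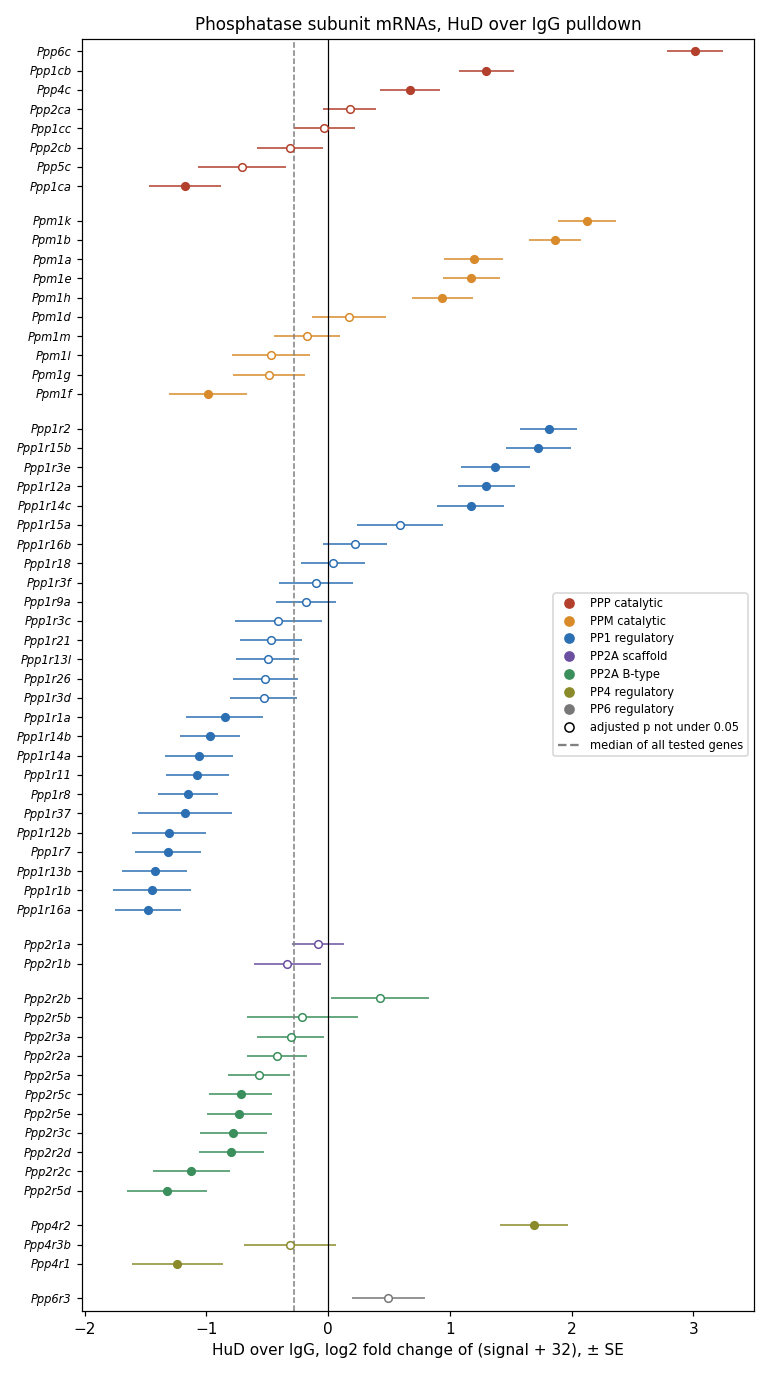
Log2 difference of (signal + 32) between HuD and IgG pulldown for each of the 61 tested members, with bars of 1 standard error, grouped by class (horizontal axis in log2 units). Filled points have a limma adjusted p under 0.05, and the dashed line is the median of all tested genes, -0.28. Ppp6c lies farthest right at 3.01, and the PP2A B-type group holds filled points only left of the line.

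Ppp6c encodes the catalytic subunit of PP6, a phosphatase with known roles in mitosis and in DNA damage signalling. Its signals were 5126, 5353 and 4597 on the HuD arrays, 569 and 619.8 on the IgG arrays and 732 in input. The lowest HuD array lay far above every other array. It was 8.06-fold higher in HuD than in IgG pulldown (3.01 ± 0.23, limma adjusted p = 0.000125), the largest difference of any member. A second probe set gave 2.08 and was also called higher.

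Ppp1cb, the PP1 catalytic isoform that pairs with myosin phosphatase targeting subunits, had signals of 4925, 5802 and 4982, against 1999.8 and 2209 with IgG and 1531 in input. It was 2.46-fold higher (1.30 ± 0.22, adjusted p = 0.00105), and the groups did not overlap. The other PP1 catalytic isoforms differed from it. Ppp1ca had 546, 817 and 422, against 1389 and 1292 with IgG and 1542 in input. Every HuD array was below the others, and the mRNA was 2.26-fold lower (-1.18 ± 0.30, adjusted p = 0.00659). Ppp1cc, the isoform concentrated in dendritic spines, had 5691, 5207 and 6553, against 4633 and 7547 with IgG and 5403 in input. Its HuD arrays lay between the IgG arrays (-0.03 ± 0.25, adjusted p = 0.923). The Ppp1cb probe set is of a type that may also bind other sequences, and its other probe sets gave 1.66 and 0.91, both called, and 0.66, not past the threshold.

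Ppp4c, the catalytic subunit of PP4, which acts in DNA repair and microtubule organisation, had 277, 322 and 331, against 181 and 184 with IgG and 267 in input. It was 1.59-fold higher (0.67 ± 0.25, adjusted p = 0.0377). The call was lost when any 1 of the 5 pulldown arrays was left out, with differences between 0.63 and 0.74. The input lay close below the HuD arrays.

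Ppp2ca and Ppp2cb encode the catalytic subunits of PP2A, the most versatile of these enzymes. Ppp2ca had 3810.3, 4274 and 4067, against 3303 and 3859 with IgG and 4062 in input, with overlapping groups (0.18 ± 0.22, adjusted p = 0.5). Ppp2cb had 181, 169 and 109, against 179 and 210.2 with IgG and 339.6 in input, again with overlap (-0.31 ± 0.27, adjusted p = 0.346). Ppp5c encodes PP5, which carries its own tetratricopeptide regulatory domain and binds Hsp90. Its signals were 257, 417 and 179, against 629.5 and 334 with IgG and 498 in input (-0.71 ± 0.36, adjusted p = 0.114). It was called lower without HuD 2 (-0.99) and without IgG 2 (-1.13). Other Ppp5c probe sets gave -0.19 and -0.10, not past the threshold.

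Of the 8 PPP catalytic members, 3 were thus higher, 1 lower and 4 not past the threshold, against 21.5% and 34.0% of all tested genes. Their median of 0.07 turned to -0.02 after quantile normalization, to -0.03 with probe sets averaged and to -0.11 without IgG 1, and it was 0.31 without IgG 2 and 0.39 after centring on the 75th percentile.

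**Figure D2:**
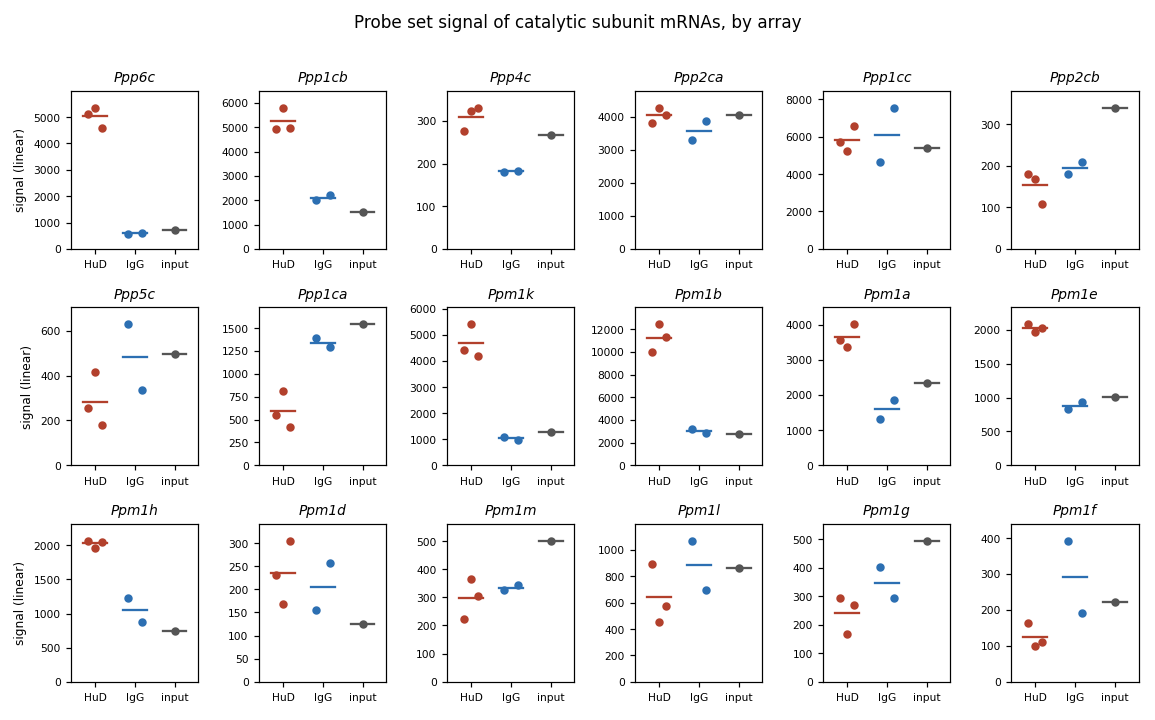
Linear probe set signal of the 18 tested catalytic members on each array (vertical axes start at 0), with HuD, IgG and input from left to right, points for arrays and bars for group means. For Ppp6c, Ppp1cb, Ppp4c, Ppm1k, Ppm1b, Ppm1a, Ppm1e and Ppm1h every HuD point lies above all others. For Ppp1ca, Ppm1f and Ppm1g every HuD point lies below all others, though by very little for Ppm1g.

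PPM enzymes are known for switching off stress and metabolic signalling. Of 12 PPM1 members, 10 were tested, and 5 (50%) were higher, 1 (10%) lower and 4 not past the threshold, against 21.5% and 34.0% of all tested genes. Their median was 0.55, and it stayed above 0 in every setting tried, at 0.24 with probe sets averaged and 0.87 after centring on the 75th percentile. The same 10 members had medians of 0.61 and 0.47 within the 2 title suffixes.

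Ppm1k is a mitochondrial phosphatase that activates breakdown of branched-chain amino acids. Its signals were 4430.4, 5408 and 4177, against 1098 and 982 with IgG and 1259.5 in input. It was 4.37-fold higher (2.13 ± 0.24, adjusted p = 0.000185), although a second probe set gave 0.43 and was not past the threshold. Averaging the probe sets gave 1.28.

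Ppm1b, a phosphatase of inflammatory and stress kinases, had 9957, 12440.2 and 11278, against 3228 and 2880.5 with IgG and 2760.2 in input. It was 3.64-fold higher (1.86 ± 0.21, adjusted p = 0.000192). Of its other probe sets, 1 was called higher at 1.92 and 1 stood at 0.28, not past the threshold.

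Ppm1a, which acts on stress-activated kinases and Smad proteins, had 3566, 3357 and 4013, against 1329 and 1848 with IgG and 2344 in input. It was 2.29-fold higher (1.20 ± 0.24, adjusted p = 0.00231). It is read by 8 probe sets, of which 7 were tested and 4 called higher, and their average was 0.62. Of the rest, 1 gave -0.09.

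Ppm1e, a neuronal nuclear phosphatase of calmodulin-dependent kinases, had 2085, 1967 and 2031, against 825 and 937 with IgG and 1016 in input. The 3 HuD arrays lay close together, and the mRNA was 2.26-fold higher (1.18 ± 0.23, adjusted p = 0.00214). Ppm1h, which removes phosphate from Rab proteins, had 2068, 1966 and 2055, against 1232 and 884 with IgG and 738 in input. It was 1.92-fold higher (0.94 ± 0.25, adjusted p = 0.00869), with a second probe set at 0.64 that was not past the threshold.

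Ppm1f, a cytosolic phosphatase of calmodulin-dependent and p21-activated kinases, went the other way. It had 164, 100.3 and 112, against 393 and 190.2 with IgG and 222 in input, and was 1.98-fold lower (-0.99 ± 0.32, adjusted p = 0.0223). The 2 IgG arrays differed by much, and without IgG 1 the difference was -0.52 and the call was lost. It was also lost without HuD 2 (-0.87) or HuD 3 (-0.93), and after centring on the 75th percentile (-0.67).

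Ppm1d, the p53-induced phosphatase, had 231, 169 and 305.5, against 155 and 256 with IgG and 125 in input, with overlap (0.17 ± 0.30, adjusted p = 0.652). Ppm1m, Ppm1l and Ppm1g had log2 differences of -0.17, -0.47 and -0.48 and were not past the threshold. Ppm1j and Ppm1n were too dim to be tested.

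Among PP1 regulatory subunits, 26 of 40 were tested, and 5 (19.2%) were higher, 11 (42.3%) lower and 10 not past the threshold, against 21.5% and 34.0% of all tested genes, with a median of -0.51 (-0.19 after centring on the 75th percentile). These subunits confer substrates on PP1 or inhibit it. Both directions occurred within the inhibitors. Ppp1r2 encodes inhibitor-2, an inhibitor and chaperone of PP1. It had 5578, 7142 and 5750.4, against 1576 and 1881 with IgG and 2028.5 in input, and was 3.51-fold higher (1.81 ± 0.23, adjusted p = 0.000282). Other probe sets gave 1.85 and 1.77, both called, and 0.24, not past the threshold.

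Ppp1r14c, a PP1 inhibitor activated by protein kinase C, had 474.5, 358 and 398, against 128 and 207 with IgG and 250.3 in input. It was 2.25-fold higher (1.17 ± 0.28, adjusted p = 0.00496). Its relative Ppp1r14a, first known from smooth muscle, had 136, 124 and 142, against 239 and 408 with IgG and 178 in input. That mRNA was 2.08-fold lower (-1.06 ± 0.28, adjusted p = 0.00814), and centring on the 75th percentile ended the call (-0.74). The third relative, Ppp1r14b, was lower by the same test (-0.97 ± 0.24, adjusted p = 0.00677). It was chosen for naming after its values were seen, as were Ppp1r1a, Ppp1r15a, the other glycogen-targeting subunits, Ppp1r12c, Ppp6r1, Ppp1r13l and both PP2A scaffolds.

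Ppp1r1b encodes DARPP-32, the dopamine- and cAMP-regulated PP1 inhibitor. It had 176, 232 and 99.8, against 578.5 and 422 with IgG and 603 in input. All HuD arrays were below all others, and it was 2.72-fold lower (-1.44 ± 0.32, adjusted p = 0.00371). Ppp1r1a, inhibitor-1, which protein kinase A activates, was called lower (-0.85 ± 0.32, adjusted p = 0.0395). Its call was lost without HuD 1 (-0.79), HuD 2 (-0.78) or IgG 2 (-0.36). Ppp1r11, inhibitor-3, had 213, 207 and 272, against 471 and 569 with IgG and 609.8 in input. It was 2.10-fold lower (-1.07 ± 0.26, adjusted p = 0.00545), and a second probe set was called at -1.06.

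Myosin phosphatase targeting subunits also divided. Ppp1r12a directs PP1, through the Ppp1cb isoform, to myosin. It had 3669, 4387 and 3916, against 1769 and 1443 with IgG and 1143 in input, and was 2.46-fold higher (1.30 ± 0.23, adjusted p = 0.00132). Its other probe sets gave 1.99, called higher, and 0.27, not past the threshold. Ppp1r12b, the related subunit best known from heart, had 100.4, 100.3 and 65.4, against 363 and 189 with IgG and 277 in input. It was 2.47-fold lower (-1.31 ± 0.30, adjusted p = 0.00455).

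Ppp1r16a, a membrane-anchored relative of these subunits, had 273, 375 and 285, against 1085 and 774 with IgG and 675 in input. It was 2.79-fold lower (-1.48 ± 0.27, adjusted p = 0.00149), the largest fall of any tested member, and a second probe set was called at -1.29. Its HuD arrays lay well below both IgG arrays and below the input.

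Ppp1r15b encodes the constitutive subunit that brings PP1 to eIF2α, the initiation factor phosphorylated in the integrated stress response. It had 739.9, 998 and 652, against 218 and 210.5 with IgG and 369 in input. It was 3.31-fold higher (1.73 ± 0.27, adjusted p = 0.000677). Probe sets averaged gave 0.77, with a second probe set too dim to be tested in the average. Its stress-inducible counterpart Ppp1r15a had 168, 339 and 134, against 158 and 91.7 with IgG and 106 in input. HuD 3 lay between the IgG arrays, and the difference was not past the threshold (0.59 ± 0.35, adjusted p = 0.171).

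Among the glycogen-targeting subunits, Ppp1r3e was higher. It had 286, 434 and 249, against 103 and 99.9 with IgG and 110.4 in input, a 2.59-fold difference (1.37 ± 0.28, adjusted p = 0.00243), and a second probe set was called at 0.87. The other 3 tested members of this group, Ppp1r3c, Ppp1r3d and Ppp1r3f, had log2 differences of -0.41, -0.53 and -0.10 and were not past the threshold. Ppp1r3a, Ppp1r3b and Ppp1r3g were too dim for the fit by gene. In the fit on single probe sets Ppp1r3g was called lower at -0.82 (adjusted p = 0.0236), and at -1.57 against input (adjusted p = 0.00717).

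Ppp1r13b, which stimulates p53-dependent transcription of apoptotic genes, had 411, 469 and 461, against 1540.4 and 1015 with IgG and 1233 in input. It was 2.68-fold lower (-1.42 ± 0.27, adjusted p = 0.00159). Its relative Ppp1r13l, which inhibits p53, was not past the threshold (-0.50, adjusted p = 0.119). Ppp1r8, a nuclear inhibitor of PP1, had 98.8, 112 and 128, against 304 and 276 with IgG and 222 in input, and was 2.22-fold lower (-1.15 ± 0.25, adjusted p = 0.00308). A second Ppp1r8 probe set gave -0.34 and was not past the threshold. Ppp1r7, a leucine-rich repeat protein that binds PP1 during its assembly, had 342, 403 and 348, against 1160.2 and 779 with IgG and 884 in input. It was 2.49-fold lower (-1.31 ± 0.27, adjusted p = 0.00239), with a second probe set called at -1.51.

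Ppp1r37, a less studied PP1-binding protein, had 47.2, 95.9 and 45.4, against 304 and 96.9 with IgG and 70.0 in input. It was called 2.26-fold lower (-1.17 ± 0.38, adjusted p = 0.0229), but HuD 2 and IgG 2 nearly met. Without IgG 1 the difference was -0.48 and without HuD 1 it was -1.06, and both lost the call, while without IgG 2 it was -1.87.

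**Figure D3:**
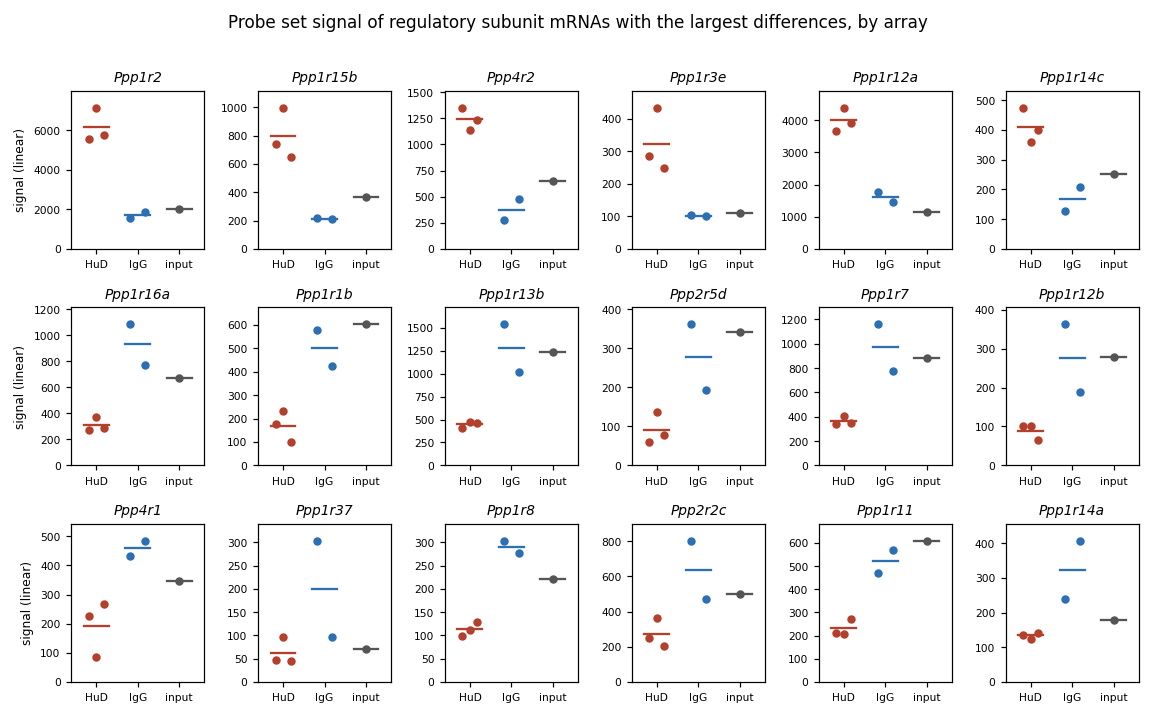
Linear probe set signal of the 6 regulatory members called higher and the 12 with the largest falls, by array (vertical axes start at 0), with HuD, IgG and input from left to right, points for arrays and bars for group means. In the top row every HuD point lies above all IgG and input points; for Ppp1r16a and Ppp1r13b every HuD point lies below them, and for Ppp1r37 the IgG arrays lie far apart at 304 and 96.9.

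The PP2A holoenzyme joins a scaffold, a catalytic subunit and 1 B-type subunit that selects substrates. Neither scaffold mRNA was called. Ppp2r1a had 8574, 9857 and 9955, against 8617 and 11627 with IgG and 7044 in input (-0.08 ± 0.21, adjusted p = 0.753). Ppp2r1b had a log2 difference of -0.33 ± 0.27 (adjusted p = 0.317).

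Of the 12 B-type members, 11 were tested, and 0 were higher, 6 lower and 5 not past the threshold, with a median of -0.72. These are shares of 0% and 54.5%, against 21.5% and 34.0% of all tested genes. At an unadjusted p under 0.05 the rises were also 0. The number of falls was 2 to 3 when any 1 pulldown array was left out, 2 after centring on the 75th percentile and 3 with probe sets averaged. The share of 34.0% does not apply to those settings, whose shares over all genes are not given here. Whether the loss of calls is particular to this class was not tested. Ppp2r5d, a B56 family subunit abundant in neurons, had 60.1, 136 and 77.2, against 362 and 193 with IgG and 343 in input. All HuD arrays were below the other arrays, and it was 2.50-fold lower (-1.32 ± 0.33, adjusted p = 0.00663). This call held in every setting tried.

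Ppp2r2c, a brain-enriched B55 subunit, had 252, 361.5 and 202, against 804 and 469 with IgG and 501.5 in input. It was 2.18-fold lower (-1.12 ± 0.32, adjusted p = 0.0116), and the call was lost without IgG 1 (-0.76) and with probe sets averaged (-0.55). The remaining B-type calls were smaller. Ppp2r2d, a B55 subunit with a known role in mitotic exit, gave -0.80 (adjusted p = 0.0258). Ppp2r3c, a centrosomal and nuclear subunit, gave -0.78 (adjusted p = 0.032). The B56 subunits Ppp2r5e and Ppp2r5c gave -0.73 (adjusted p = 0.0385) and -0.72 (adjusted p = 0.0346).

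Each of these 4 calls was lost without single arrays. Ppp2r2d lost it without HuD 1 (-0.74), HuD 2 (-0.78), HuD 3 (-0.87) or IgG 2 (-0.52). Ppp2r3c lost it without HuD 1 (-0.83), HuD 3 (-0.62) or IgG 2 (-0.56), and Ppp2r5e without HuD 2 (-0.61), HuD 3 (-0.68) or IgG 1 (-0.58). Ppp2r5c lost it whichever of the 5 arrays was left out, with differences between -0.84 and -0.57. The probe sets of Ppp2r5c and Ppp2r5e also disagreed. For Ppp2r5c the others gave -1.17, called lower, and -0.39, -0.04, 0.04 and 0.15, not past the threshold. For Ppp2r5e they gave -1.60 and -1.23, both called lower, and -0.03 and 0.27, not past it. A second Ppp2r3c probe set gave 0.45. The B-type members not past the threshold were Ppp2r2b at 0.43, Ppp2r5b at -0.21, Ppp2r3a at -0.31, Ppp2r2a at -0.42 and Ppp2r5a at -0.57. A different Ppp2r2a probe set was called higher at 0.85.

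PP4 regulatory mRNAs took both directions. Ppp4r2, which joins PP4 complexes known from DNA repair, had 1352, 1139.8 and 1237, against 274 and 475 with IgG and 654 in input. It was 3.23-fold higher (1.69 ± 0.28, adjusted p = 0.000909), while a second probe set gave 0.51, not past the threshold, and the average was 1.10. Ppp4r1 had 225, 83.7 and 269, against 432 and 485 with IgG and 347 in input. It was 2.36-fold lower (-1.24 ± 0.37, adjusted p = 0.0161), with HuD 2 far below the other HuD arrays. Leaving out HuD 2 gave -0.82, still past the threshold, and centring on the 75th percentile gave -0.92, which was not.

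Ppp4r3b had 216.5, 114 and 219, against 137.5 and 365 with IgG and 247 in input, and was not past the threshold (-0.31 ± 0.38, adjusted p = 0.497). It was called lower without IgG 1 (-0.93). The PP6 regulatory subunit Ppp6r3 had 366, 336 and 291, against 315 and 158 with IgG and 214 in input (0.50 ± 0.30, adjusted p = 0.178). It was called higher without IgG 1 (0.93) and after centring on the 75th percentile (0.81), and another of its probe sets was called lower at -1.004.

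The remaining 22 members lay under the median brightness of all genes and were not tested. They were Ppm1j and Ppm1n, 14 PP1 regulators, Ppp2r3d, Ppp4r3a, Ppp4r4, Ppp6r1, Ppp6r2 and the opposite-strand RNA Ppp2r2cos. Their highest signal was 82.6 on a HuD array (Ppp2r3d), 129 on an IgG array (Ppp1r12c) and 152.5 in input (Ppp1r3g). The table holds no detection calls, so a low signal cannot be called absence.

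The 83 members are read by 176 probe sets, with 1 probe set for 39 members and several for 44. In a fit on each of the 22519 probe sets at or above median brightness, 14.7% were called higher and 26.0% lower. Of the 33 members with at least 2 tested probe sets, 0 had probe sets called in opposite directions. In 16 all tested probe sets had the same outcome, and 17 had called and uncalled probe sets. Among the 16, Ppp6c and Ppp1r3e were called higher on every tested probe set, and Ppp1r11, Ppp1r16a and Ppp1r7 lower. The rest of the 16 had no called probe set. Of the 22 members too dim for the fit by gene, Ppp1r12c was called lower there at -1.47 (adjusted p = 0.00448), Ppp6r1, a regulatory subunit of PP6, at -1.08 (adjusted p = 0.00746) and Ppp1r3g at -0.82 (adjusted p = 0.0236), and 0 were called higher. Some calls of the fit by gene were lost there. The probe sets used for Ppp4c, Ppp1r1a and Ppp2r5e had limma adjusted p of 0.0523, 0.0506 and 0.0527. Probe sets of a gene can lie at different distances from the transcript end or on different transcript variants, which the annotation used here does not resolve.

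**Figure D4:**
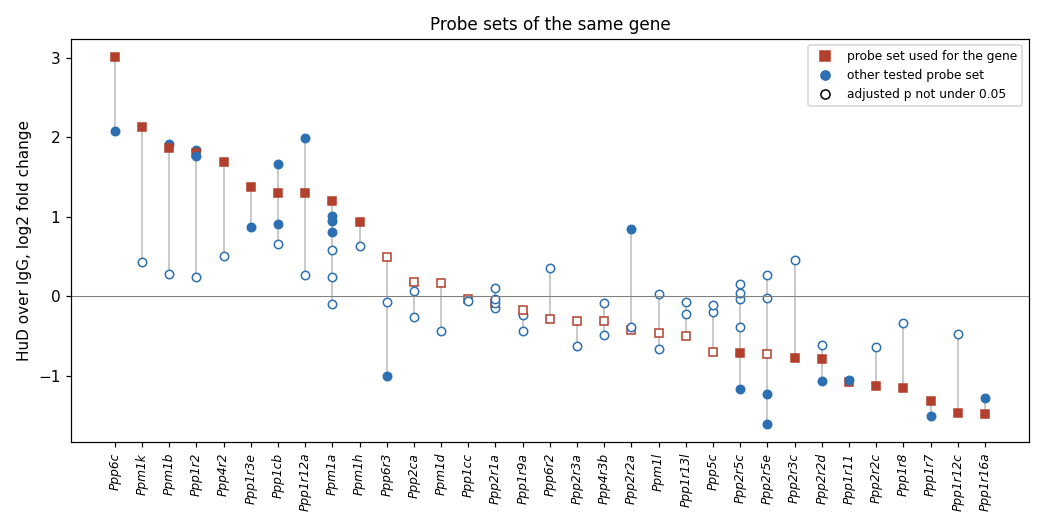
HuD over IgG log2 difference of (signal + 32) for every tested probe set of the 33 members with at least 2 (vertical axis), ordered by the probe set used for the gene (square), with circles for the others and filled symbols for an adjusted p under 0.05. Both Ppp6c probe sets are filled, at 3.01 and 2.08, whereas Ppm1k has a filled square at 2.13 and an open circle at 0.43.

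Partners of these phosphatases whose symbols lie outside the rule were examined from a list of 41, of which 36 were on the array under the listed symbol and 33 were tested. Of the names not found, Smek1, Smek2 and Sds22 are older names of the members Ppp4r3a, Ppp4r3b and Ppp1r7. Of the 33, 14 (42.4%) were higher in HuD than in IgG pulldown and 7 (21.2%) lower, against 21.5% and 34.0% of all genes, with a median of 0.25. With probe sets averaged, 7 were higher.

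Shoc2, a scaffold that brings PP1 to Raf kinases, had 1566, 1498 and 1811, against 121 and 223 with IgG and 306 in input. It was 8.36-fold higher (3.06 ± 0.29, adjusted p = 0.000125). A second probe set gave 0.61, not past the threshold. Csrnp2, a nuclear protein that binds PP1, had 2556, 4525 and 3757, against 443 and 637 with IgG and 426 in input, a 6.30-fold difference (2.66 ± 0.30, adjusted p = 0.000187). Mob4, a subunit of the striatin complexes of PP2A, was 4.25-fold higher (2.09 ± 0.24, adjusted p = 0.000187). Ensa, which inhibits PP2A when phosphorylated at mitotic entry, was 4.13-fold higher (2.04 ± 0.28, adjusted p = 0.000384). Averaged probe sets gave 1.08 for Ensa and 1.84 for Shoc2.

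Lcmt1, which methylates the carboxyl end of the PP2A catalytic subunit, had 141, 265 and 176, against 705 and 536 with IgG and 719.6 in input. It was 2.94-fold lower (-1.56 ± 0.30, adjusted p = 0.0017). Cttnbp2, a neuronal cortactin-binding protein of striatin complexes, was 2.76-fold lower (-1.46 ± 0.26, adjusted p = 0.00116). Igbp1, which protects unassembled PP2A catalytic subunits, was 2.45-fold lower (-1.29 ± 0.30, adjusted p = 0.00424). The average of the Igbp1 probe sets, -0.30, was not past the threshold, and 1 of them gave 0.48.

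Protein kinase A opposes PP1 and PP2A at many synaptic substrates. Of its 6 subunit mRNAs, all tested, 4 (66.7%) were higher and 1 (16.7%) lower, against 21.5% and 34.0% of all tested genes, with a median of 0.74. With probe sets averaged 1 was higher and 1 lower. Prkar1b, a regulatory subunit concentrated in brain, had 2763, 4323 and 3534, against 8563 and 7700.5 with IgG and 5988 in input. It was 2.32-fold lower (-1.21 ± 0.24, adjusted p = 0.00209). The probe set read for it is of a type (x) that may also bind other sequences. Of its other probe sets, 2 were called lower at -1.48 and -1.04, and 2 gave -0.06 and -0.28, not past the threshold.

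The comparison of HuD pulldown with input asks how far an mRNA's signal in the pulldown departs from its signal in total RNA. It shares the HuD arrays with the preceding comparison, so the values are given side by side and not as separate evidence. The fit assumes that the 1 input array has the scatter of the pulldown arrays. Over all tested genes, 15.7% were called higher and 25.9% lower. Of the 61 members, 11 (18%) were higher, 11 (18%) lower and 39 not past the threshold, with a median of -0.34. The catalytic members counted 6 higher and 2 lower of 18, and the regulatory members 5 and 9 of 43, with medians of 0.14 and -0.42 against -0.32 for all genes. After centring on the 75th percentile, the members counted 14 higher and 4 lower. The shares of 15.7% and 25.9% belong to the deposited scaling and do not apply to these counts.

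Ppp6c was 2.72 ± 0.29 above input on the log2 scale (adjusted p = 0.00128), against 3.01 above IgG. Ppm1b was 2.01 above input (adjusted p = 0.00151) and 1.86 above IgG, and Ppm1k 1.86 above input (adjusted p = 0.00233) and 2.13 above IgG. Ppp1cb was 1.75 above input (adjusted p = 0.00234). These 4 stayed past the threshold under all 12 other settings tried for this comparison.

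Among falls, the log2 difference from input was -1.71 for Ppp1r1b (adjusted p = 0.00863) and -1.65 for Ppp2r5d (adjusted p = 0.0111), both past the threshold in all 12 settings as well. For Ppp2r3c it was -1.73 (adjusted p = 0.00457), but the averaged probe sets gave -0.39, not past the threshold. Ppp2cb, which was not called against IgG, differed from input by -1.03 (adjusted p = 0.0342). That call was lost in 8 of the 12 settings, among them without HuD 1 (-1.14), HuD 2 (-1.10) or HuD 3 (-0.84). Ppp1ca differed by -1.38 (adjusted p = 0.0147), and lost the call without HuD 1 (-1.34) and after centring on the 75th percentile (-1.02).

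Of the members called higher than IgG, 4 were not past the threshold against input. Ppm1a was 0.63 above input (adjusted p = 0.119), Ppp4c 0.19 (adjusted p = 0.643), Ppp4r2 0.89 (adjusted p = 0.0635) and Ppp1r14c 0.64 (adjusted p = 0.158). For each of them the input signal lay above both IgG signals. In all 14 members called higher than IgG, every HuD array was above the input array. Both catalytic members called lower and 16 of the 18 regulatory ones had every HuD array below input, the exceptions being Ppp1r37 and Ppp2r5e. The matching counts over all called genes were not taken. The HuD arrays are the same in both comparisons, so these counts are not separate evidence.

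**Figure D5:**
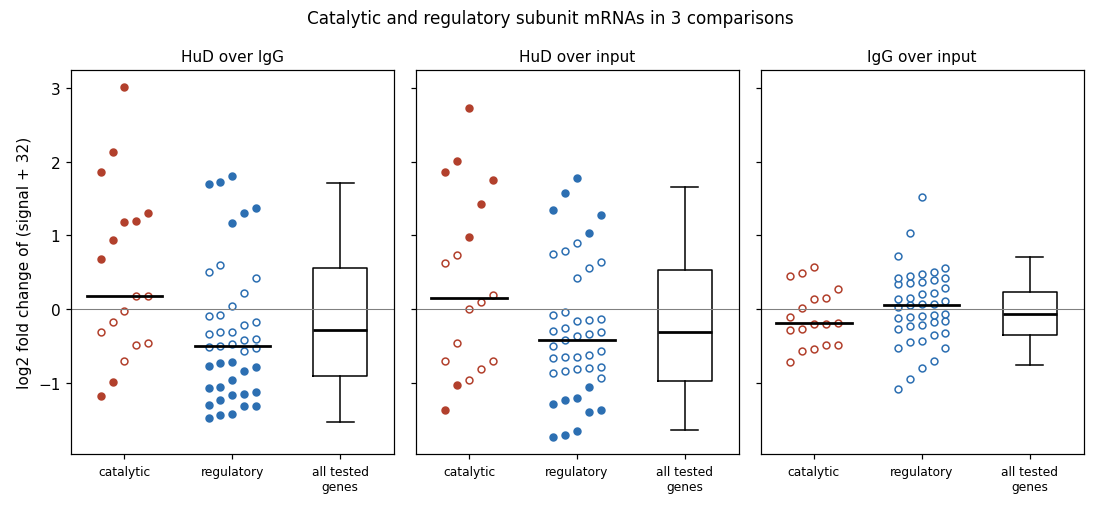
Log2 difference of (signal + 32) of the tested catalytic (18) and regulatory (43) members in HuD over IgG, HuD over input and IgG over input, beside all tested genes as a box (quartiles, with whiskers from the 5th to the 95th percentile). Bars mark medians (for HuD over IgG 0.17 and -0.50, the first of which turned to -0.03 with probe sets averaged), and filled points have an adjusted p under 0.05, of which the third panel has none.

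The comparison of IgG pulldown with input describes which mRNAs made up more or less of the signal on beads without the myc antibody. By limma, 0 of the 61 members were higher and 0 lower, as for 0.0220% and 0% of all tested genes. At an unadjusted p under 0.05 there was 1 member in each direction, and 7.05% of all genes. The lowest adjusted p of any member was 0.437, for Ppp1r9a. It encodes neurabin, an actin-binding protein that targets PP1 to dendritic spines. It had 2353 and 2857 on the IgG arrays and 880.1 in input, a log2 difference of 1.53 ± 0.33, which was not past the threshold.

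The HuD arrays had 2167, 2020.3 and 2730 for Ppp1r9a, which did not differ from IgG past the threshold (-0.18 ± 0.25, adjusted p = 0.554) and was higher than input (1.35, adjusted p = 0.00768). With probe sets averaged the difference from input was 0.60 and not past the threshold, but this average includes probe sets too dim to be tested. Of its other tested probe sets, 1 was called higher than input at 1.15 (limma adjusted p = 0.0221) and 1 gave 0.48, not past the threshold. Among mRNAs above input on the IgG arrays, next by unadjusted p came Ppp1r37 at 1.03 and Ppp1r14a at 0.72. Those below input were led by Ppp2r3c at -0.96, Ppp4r2 at -0.80 and Ppp2r2b at -1.09. None of these 5 was past the threshold.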

How the data were processed

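The authors' deposited values are intensities on a linear scale, 1 signal for each of 45101 probe sets on 6 arrays (HuD 3, IgG 2, input 1). The trimmed mean of every array (2% left out at each end) was 150.001, so the authors had scaled the arrays to a common level; the software behind the signals is not given in the sources used here. GEO's platform annotation named 34945 probe sets with 1 symbol, 932 with several and 9160 with none; 64 were controls, and only single-symbol probe sets were used. All 83 members were found in the RefSeq gene table of GRCm38.p6, used for names only.

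Signals were transformed as log2(signal + 32). With limma 3.58.1 in R 4.3.3, a mean for each group was estimated from all 6 arrays, with eBayes and a mean-variance trend (3 residual and 8.40 prior degrees of freedom). A single variance per gene served all groups, although the SD of log2 differences was 0.616 between the IgG arrays and 0.314 to 0.457 between HuD arrays. Replicate numbers follow the order of deposit. The steps were tested on simulated data.

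Members and lists were chosen with earlier results of these data known. Named genes are every catalytic member, the 12 largest regulatory rises and falls past the threshold without overlap of HuD and IgG arrays, 3 per direction in the other comparisons (filled up by lowest p), the other PP2A B-type, PP4 and PP6 subunits, and 4 related genes per direction. Alternatives were the pseudocount (8), no filter, centring on the 75th percentile, quantile normalization, averaged probe sets, eBayes without a trend, the title suffix or replicate number as a block, pulldown arrays only, and leaving out each array. Averages took in every probe set of a gene, also those too dim to be tested alone.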

Additional observations from a re-analysis of the deposited data

How the results depend on the processing

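Of the 34 members called between HuD and IgG, 23 kept direction and call in every setting tried for them (up to 14), 13 of the 14 rises and 10 of the 20 falls. The cause of the changes given here was not tested. The shares of all tested genes printed above belong to the deposited scaling with all 6 arrays. They do not apply to counts under other settings. Centring on the 75th percentile left 11 members lower in HuD than in IgG (20 before), 10 regulatory members lower (18), 1 catalytic member lower (2), 4 members lower in HuD than in input (11) and 4 related regulators lower (7). Leaving low genes in, and quantile normalization, each gave 1 catalytic member lower. The title suffix as a block gave 7 members lower in HuD than in input. Averaged probe sets gave 0.26 for the gap between catalytic and regulatory medians (0.67) and 7 related regulators higher (14). Leaving out each array gave 13 to 14 members higher and 15 to 17 lower in HuD than in IgG, 9 to 14 higher and 7 to 15 lower in HuD than in input, 7 catalytic members higher and 1 to 3 lower, 6 to 7 regulatory members higher and 13 to 16 lower, a gap of 0.50 to 0.86, and 11 to 13 related regulators higher and 4 to 7 lower. The low ends of 7 and 4 came without HuD 1. IgG against input, 2 arrays against 1, gave 0 and 0 members in every setting run, which says nothing about stability in so small a comparison. Of 22 members called between HuD and input, 10 kept the call in all 12 settings. Single probe sets with the opposite sign gave -0.091 for Ppm1a, 0.45 for Ppp2r3c, 0.85 for Ppp2r2a, 0.038 and 0.155 for Ppp2r5c, 0.27 for Ppp2r5e, -1.004 for Ppp6r3 and 0.48 for Igbp1. The replicate block on the pulldown arrays (2 pairs from title numbers, whose residuals correlated at -0.03 and 0.40 across genes, so that the numbers do not establish a pairing) gave 13 members higher and 19 lower and changed 4 of 59 genes, Ppp4c, Ppp5c, Ppp2r5c and Ppp2r5e. HuD 2 had no partner in this setting and added nothing to the differences. They equalled those without HuD 2, as for Ppp4c (0.65) and Ppp2r5c (-0.57). The class, related-list and HuD against input checks were added after seeing the data.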
